A study of Schizosaccharomyces pombe with 6 samples.

Results

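The subtelomeres of chromosomes I and II were taken as the outermost 100 kb of each of the 4 chromosome ends in fission yeast, *Schizosaccharomyces pombe*: chrI:1-100000 (I left), chrI:5479134-5579133 (I right), chrII:1-100000 (II left) and chrII:4439805-4539804 (II right). Cut into bins of 500 bp, these end zones held 800 of the 25145 bins of the genome. They were chosen by position alone, and for each bin the part lying under peaks of calibrated ChIP-seq of CFP-Cnp1 was measured. Cnp1 is the CENP-A histone variant that replaces H3 at centromeres, and the CFP tag lets an anti-GFP antibody pull it down. The strains were an untagged control, WT with CFP-cnp1:Kan, and *SUMO-KallR* with CFP-cnp1:Kan and pmt3-KallR, in which all lysines of the SUMO protein Pmt3 are arginines so that SUMO chains cannot form. The comparison asked where Cnp1 lies when these chains are missing. All 3 carried the same *ade6*, *leu1* and *ura4* marker alleles and were taken from exponential cultures, to which budding yeast cells were added as a calibrator. Each strain had 1 ChIP library with 1 peak list and 1 input library. With 1 library per strain, differences between strains could not be tested, and every value below describes these libraries.

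Subtelomeres of fission yeast are built of long sequence blocks that are nearly the same at several ends. The ends hold RecQ-type helicase genes (*tlh*), families of small membrane proteins, transporters and cell-surface glycoproteins, and much of this chromatin is silenced as heterochromatin carrying H3K9 methylation and the HP1 protein Swi6. The *tlh* genes contain sequence related to the repeats that flank the centromeres, from which RNA interference can start heterochromatin. The lists also had to be read in the light of repeated sequence: a read whose bases occur at several ends cannot be assigned to one of them by its sequence.

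The genome-wide lists differed greatly in extent. The untagged list, from cells with no CFP-Cnp1, held 961 peaks over 95.2% of the genome, the WT list 59 peaks over 1.12% and the *SUMO-KallR* list 1615 peaks over 92.8%. Peaks of *SUMO-KallR* in the end zones were therefore set beside those of the untagged strain, and what part of them came from CFP-Cnp1 was not tested. The height of a peak is its score divided by 10, which by the convention of MACS is the highest −log10 *p* within the peak. Heights depend on the depth of a library and its input and were compared within a list. The height of a single peak has no interval because the lists hold no read numbers.

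Sequences that the results turn on are shown first, 5′ to 3′ and from the reference ASM294v3. The first set is part of the only WT peak of the end zones, at the start of *ftm5* at II left (chrII:7840-8063, plus strand). Most of it lies before the gene, whose annotated range begins at 7980, and 10 bases around the WT summit are in capitals. Its copy at the start of *ftm4* at I right (chrI:5567157-5567380, minus strand) also reaches beyond the gene, and the capital marks the base that differs. That difference is G37A, counted from the first base of the WT peak, with the base at II left given first. A further copy, at SPBPB2B2.19C at II right (chrII:4504861-4505084, minus strand), has the same bases as the window at II left.
ftm5 window: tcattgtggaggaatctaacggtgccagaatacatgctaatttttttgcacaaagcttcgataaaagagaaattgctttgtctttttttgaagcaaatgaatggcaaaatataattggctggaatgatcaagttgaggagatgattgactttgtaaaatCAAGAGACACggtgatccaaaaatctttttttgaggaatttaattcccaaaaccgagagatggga
ftm4 copy: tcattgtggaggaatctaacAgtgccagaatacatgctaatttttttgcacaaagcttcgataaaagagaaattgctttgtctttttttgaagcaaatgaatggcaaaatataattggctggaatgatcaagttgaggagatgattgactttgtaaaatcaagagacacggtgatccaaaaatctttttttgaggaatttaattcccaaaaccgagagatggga

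The second set shows how close *tlh* is to the centromeric repeat: 106 bases within *tlh1* (chrI:3715-3820, plus strand), which are the same in *tlh2* (chrII:4528727-4528832, minus strand), and the matching bases beside the centromere of chromosome II (chrII:1610618-1610723, minus strand), with the differing bases in capitals. In this block 95 of 106 bases were the same (89.6%).
tlh1 stretch: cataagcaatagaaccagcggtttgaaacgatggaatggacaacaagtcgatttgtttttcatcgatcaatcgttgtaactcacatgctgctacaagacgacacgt
centromeric repeat: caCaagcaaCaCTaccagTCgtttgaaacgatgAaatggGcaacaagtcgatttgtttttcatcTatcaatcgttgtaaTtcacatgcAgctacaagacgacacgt

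The third set gives 101 bases around the highest summit of the untagged list (chrII:4535652-4535752, beyond *tlh2* toward the end) and of the *SUMO-KallR* list (chrI:5324-5424, inside *tlh1*), both on the plus strand, with 11 bases at the summit in capitals.
untagged II right highest summit: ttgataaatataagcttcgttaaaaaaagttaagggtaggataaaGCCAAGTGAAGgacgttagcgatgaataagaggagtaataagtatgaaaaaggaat
SUMO-KallR I left highest summit: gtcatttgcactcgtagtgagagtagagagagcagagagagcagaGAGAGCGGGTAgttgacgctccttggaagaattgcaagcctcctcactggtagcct

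Peaks of the untagged and *SUMO-KallR* lists covered most of the end zones, and WT peaks covered almost none of them. Of the 400000 bp, 357728 bp (89.4%) lay under untagged peaks, 331578 bp (82.9%) under *SUMO-KallR* peaks and 387 bp (0.0968%) under a WT peak. In the next 100 kb inward of each end the shares were 94.7%, 89.0% and 0.0%, and in the rest of chromosomes I and II outside 50 kb on either side of the centromeres they were 96.0%, 93.2% and 0.0245%. Coverage was thus lower in the end zones than farther in for both broad lists. Counted by bin, 727 of 800 bins lay at least 50% under untagged peaks (90.9%, exact binomial 95% interval 88.7 to 92.8), beside 95.6% of all bins in the genome. The same held for 677 bins of *SUMO-KallR* (84.6%, 81.9 to 87.1), beside 93.7%, and for 0 of 800 bins of WT (upper limit 0.46%), beside 1.11%. A peak overlapped 760 bins in the untagged list, 742 in *SUMO-KallR* and 2 in WT, beside 98.1%, 97.4% and 1.32% of all bins. Neighbouring bins share peaks, so these intervals cover counting error of independent bins and are too narrow.

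The 4 ends were not alike. Untagged peaks covered 93.7% of I left, 93.4% of I right, 83.7% of II left and 87.0% of II right, and *SUMO-KallR* peaks covered 87.8%, 85.9%, 78.4% and 79.5%. Both lists thus covered the ends of chromosome II less than those of chromosome I, but without the long uncovered stretch described below II left had 93.8% and 87.8%. Pooled over the ends, the outer 50 kb was covered 2.55 percentage points less than the inner 50 kb by untagged peaks (a difference of -2.55) and 3.82 less by *SUMO-KallR* peaks (a difference of -3.82). Without the long uncovered stretch of II left described below, both differences changed sign, to 2.46 and 0.787 points. No fall or rise in coverage toward the end can therefore be read from these lists. The outermost bases of each end were bare, with the first untagged peak beginning 64 to 212 bp from the end and the first *SUMO-KallR* peak 100 to 587 bp from it.

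The peaks of the end zones were shorter and denser than in the rest of chromosomes I and II. The untagged list had 65 summits there, 16.2 per 100 kb, with a median peak width of 3873 bp, and 6.83 summits per 100 kb with a median width of 9211 bp in the rest of chromosomes I and II. For *SUMO-KallR* the 115 summits gave 28.8 per 100 kb with a median width of 2142 bp, set against 12.5 per 100 kb and 5141 bp. The next 100 kb inward lay between, so the trait is partly shared with them. There the untagged list had 9.5 summits per 100 kb and a median width of 4325 bp, and *SUMO-KallR* 19.2 and 3587 bp. Summits also fell between genes more often in number: 17 of 65 untagged summits (26.2%) and 28 of 115 *SUMO-KallR* summits (24.3%) lay between annotated genes, compared with 6.15% and 2.85% in the rest of both chromosomes. Coding exons held 52.3% and 49.6% of the summits of the end zones, against 65.2% and 76.8%. The regions also differ in gene content: of the sequence under both lists, 40.8% was coding in the end zones and 64.1% in the rest. The summit shares were not adjusted for this, and the share of sequence between genes was not measured.

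Within the end zones, heights rose toward the chromosome ends. Over covered bases, the zones as a whole had a median height of 15.3 (untagged) and 14.1 (*SUMO-KallR*). These were below the 20.2 and 18.2 of the rest of chromosomes I and II. In the untagged list the median height of the peak over a bin, pooled over the 4 ends, was 37.9 in the outermost 10 kb, 30.5 and 26.8 in the next steps of 10 kb, 16.9 at 30 to 40 kb and 12.2 at 40 to 50 kb. Farther in it stayed between 11.2 and 15.3. *SUMO-KallR* gave 36.9, 31.5, 17.0, 13.9 and 12.3 over the same 5 steps and 10.7 to 14.4 beyond them. By end, the outermost 10 kb had medians of 37.9 (I left), 53.8 (I right), 30.5 (II left) and 103.9 (II right) in the untagged list and of 57.6, 44.8, 36.5 and 33.2 in *SUMO-KallR*, so each end was above the pooled level farther in. A bin takes the height of its whole covering peak, so medians over bins rest on few peaks. The outermost 10 kb held 1 untagged summit each at I left, I right and II left and 2 at II right. For *SUMO-KallR* it held 1, 3, 3 and 4 in the same order of ends. Single ends departed from the pooled level farther in. I left had an untagged median of 26.0 at 50 to 60 kb and 18.4 at 60 to 70 kb, and II left had 37.2 in the untagged list and 29.0 in *SUMO-KallR* at 90 to 100 kb. At the inner border, the pooled median of the untagged list was 15.3 at 90 to 100 kb and 18.1 at 100 to 110 kb, and that of *SUMO-KallR* 14.4 and 12.9.

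**Figure D1:**
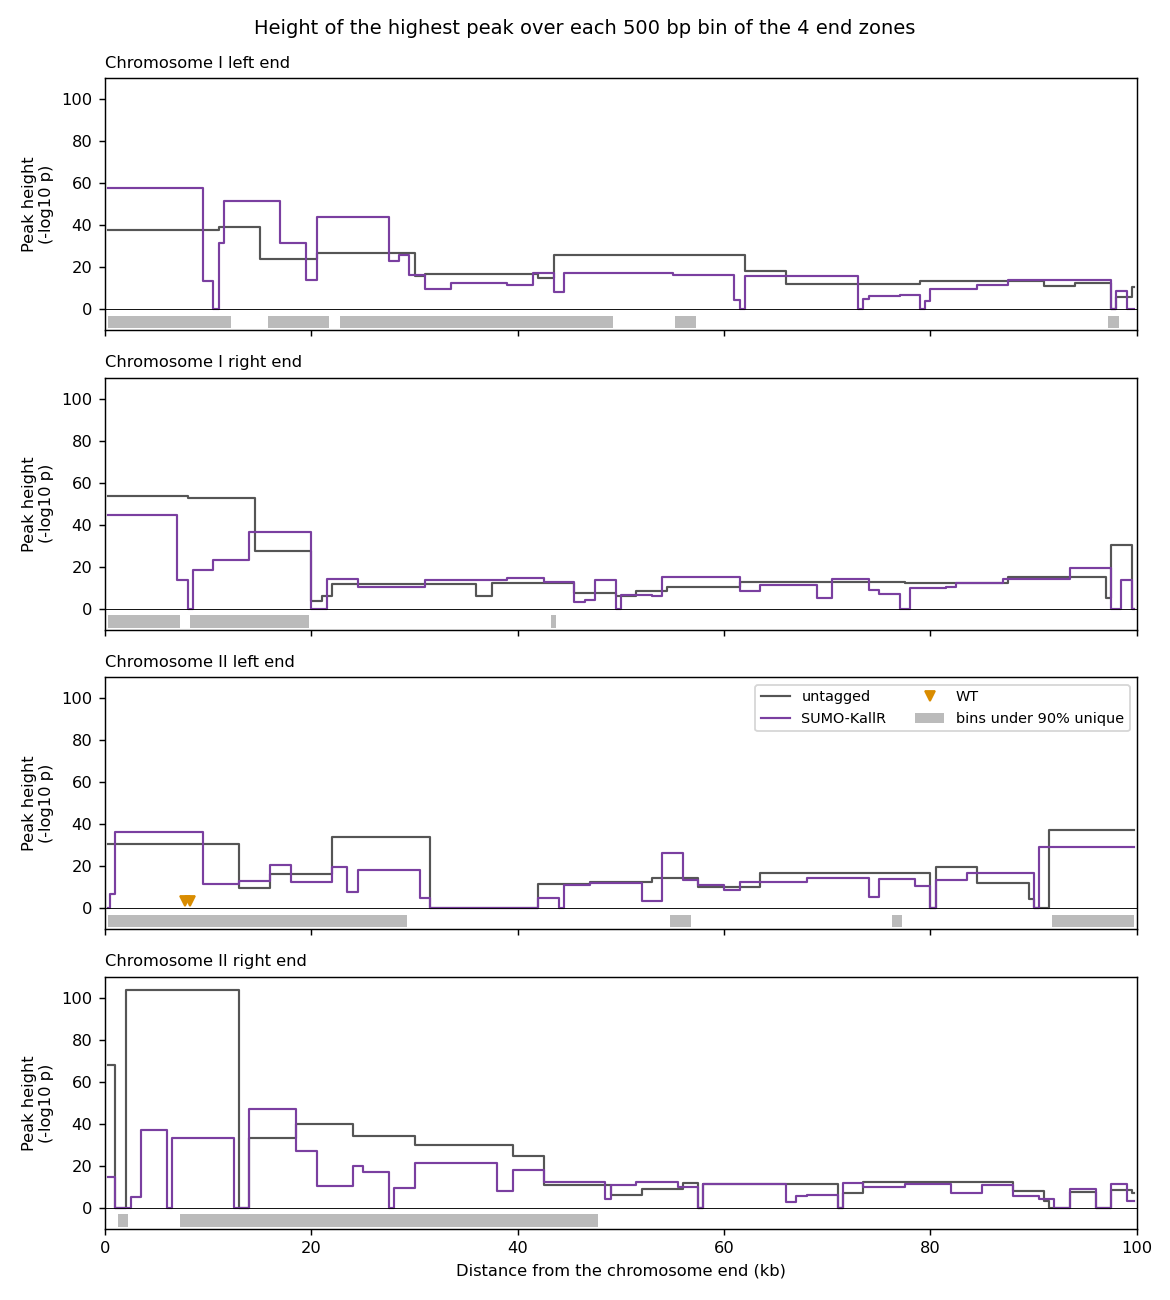
Height of the highest peak over each 500 bp bin (−log10 *p*, vertical axis, 0 where no peak lies) against the distance from the chromosome end in kb, for untagged (grey line), *SUMO-KallR* (purple line) and WT (orange triangles), with bins under 90% unique sequence as grey bars below 0. The outer parts of the ends carry the high peaks, up to 103.9 at II right, and both lines lie at 0 over about 10 kb of II left.

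**Figure D2:**
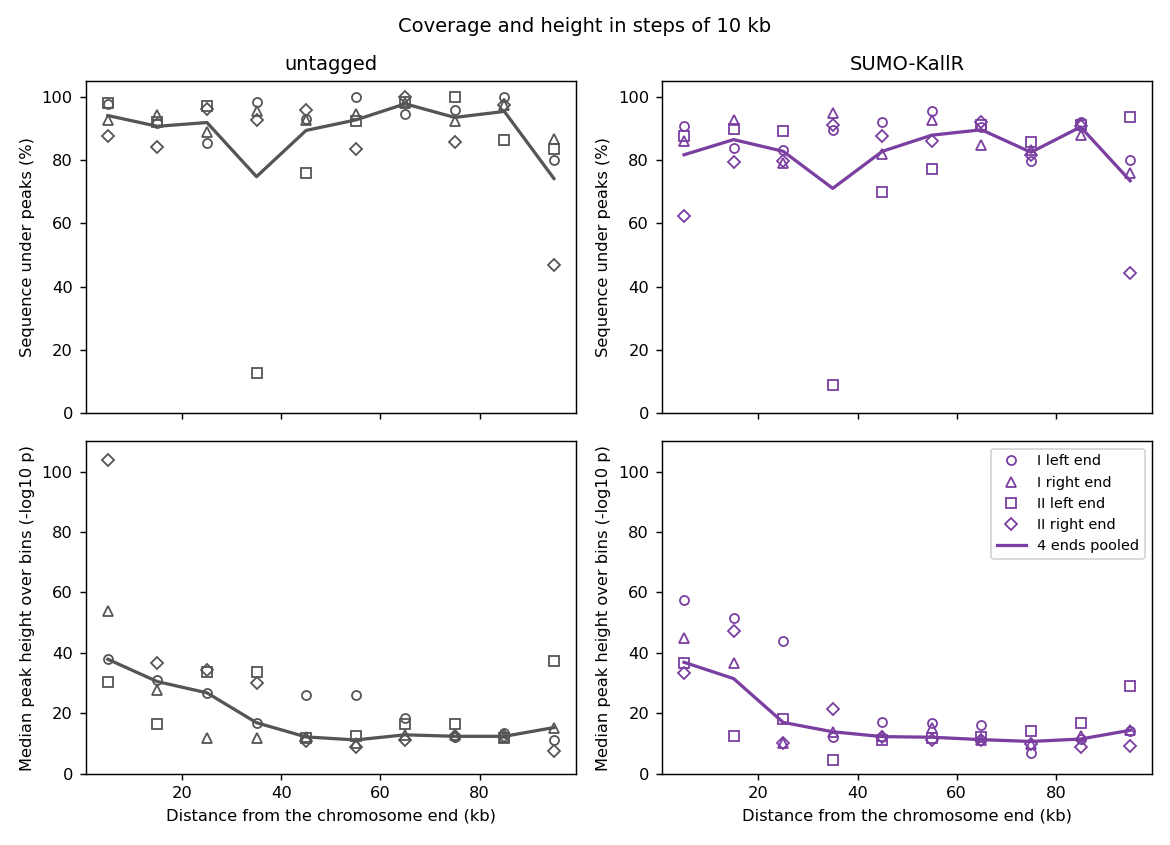
Sequence under peaks (%, upper row) and median height over bins (−log10 *p*, lower row) in steps of 10 kb from the chromosome end, for the untagged (left) and *SUMO-KallR* (right) lists, with a symbol for each end and a line for the 4 ends pooled. Coverage shows no trend with distance, while the pooled height falls from 37.9 to 12.2 (untagged) and from 36.9 to 12.3 (*SUMO-KallR*) over the outer 50 kb.

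Most of the high peaks of the end zones lay in the outer 30 kb. Of the 21 untagged summits there, 14 (66.7%) were above 26.4, the 95th percentile of the 650 summits in the rest of chromosomes I and II, and of the 44 summits at 30 to 100 kb 3 were (6.82%). In *SUMO-KallR*, 13 of 35 summits of the outer 30 kb (37.1%) and 1 of 80 farther in (1.25%) were above the corresponding 23.4. Summits of both lists thus passed these cutoffs at a higher rate in the outer 30 kb than farther in. By the definition of a 95th percentile, some summits of the rest of both chromosomes also lie above them, up to 72.7 (untagged) and 76.1 (*SUMO-KallR*). Over all summits, the median height was lower in the zones, 12.4 (untagged) and 11.9 (*SUMO-KallR*), than the 18.2 and 16.0 of the rest of both chromosomes.

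The rise in height went along with repeated sequence. In the end zones 67.4% of start positions gave a 150-base sequence, the length of a read, that occurs once in the genome, and 29.9% gave one that also occurs at another of the 4 ends, while 99.0% were unique in the rest of both chromosomes. Unique sequence made up 22.6% of the outermost 10 kb, 24.6%, 40.5%, 59.7% and 62.3% of the following steps, and 77.3% to 99.1% of the steps beyond 50 kb. The 178 bins under 10% unique had a median height of 30.5 in the untagged list and 29.0 in *SUMO-KallR*, and the 484 bins at least 90% unique had 12.2 and 12.1. Within those unique bins the median was 11.8 in the outer 50 kb (121 bins) and 12.4 in the inner 50 kb (363 bins) in the untagged list, and 13.9 and 11.9 in *SUMO-KallR*. The large difference in height between the outer and the inner 50 kb was not seen in these medians. Few of the outer unique bins lay near the tips, with only 1 at I right and 10 at II right in the outermost 10 kb. The medians therefore cannot show whether the rise toward the tips is present in unique sequence. Of the unique bins, 80.2% of the outer and 91.2% of the inner ones lay at least 50% under untagged peaks, and 69.4% and 86.0% under *SUMO-KallR* peaks. The outer ones include the long uncovered stretch of II left described below, which is 100.0% unique. No direction in the coverage of unique bins can therefore be read from these shares. The part that multiple mapping plays in the heights was not tested, because the lists hold peaks and no reads.

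Bins of unique sequence at the tips also lay under high peaks, though the summit of such a peak may lie in repeated sequence. The outermost 10 kb of II right was 64.9% unique, against 9.72% for I left, 15.9% for I right and 0.0% for II left. Its 10 bins of at least 90% unique sequence all lay under untagged peaks of 68.1 to 103.9. In *SUMO-KallR*, 9 of these 10 bins were under a peak, with heights from 5.2 to 36.9. The 1 such bin in the outermost 10 kb of I right lay under an untagged peak of 53.8 and a *SUMO-KallR* peak of 13.8, and I left and II left had none. The right end of chromosome II held the highest untagged peak of all 4 zones, 10651 bp long with its summit 4102 bp from the end and 2803 bp beyond *tlh2*, and the next highest, of 68.1, with its summit 230 bp from the end. Neither summit lay in an annotated gene. The long non-coding RNA genes SPNCRNA.6655 and SPNCRNA.6656, both fully unique, lay wholly under the untagged peak of 103.9 and a *SUMO-KallR* peak of 36.9, whereas SPNCRNA.6653 and SPNCRNA.6654, also unique and next to them, lay under the former and under no *SUMO-KallR* peak.

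The *tlh* genes, which encode RecQ-type DNA helicases, lay under long peaks of both broad lists, and the height given for a gene is that of the highest peak over it, whose summit may lie outside the gene. *tlh1* begins at the left end of chromosome I and was 96.3% under untagged peaks with a height of 37.9 and 95.7% under *SUMO-KallR* peaks with a height of 57.6, the highest *SUMO-KallR* peak of the zones. For *tlh2*, whose near edge is 6905 bp from the right end of chromosome II, the values were 97.3% and 103.9 in the untagged list and 91.3% and 33.2 in *SUMO-KallR*. Both *SUMO-KallR* summits lay within the gene, and both untagged summits lay between genes, so the untagged heights do not rank the 2 genes. Only 4.13% of *tlh1* and 10.8% of *tlh2* was unique, and no WT peak touched either gene. The stretch related to the centromeric repeat (chrI:3439-3916 and chrII:4528631-4529108) matched its closest relatives, on either side of the centromere of chromosome II, at 435 of 505 aligned bases (86.1%). Those centromeric copies lay entirely under WT peaks of 74.8 and 61.6, and also under untagged peaks of 67.3 and 143.7 and *SUMO-KallR* peaks of 665.1 and 531.7, and the stretches in *tlh1* and *tlh2* lay under no WT peak and entirely under untagged and *SUMO-KallR* peaks. In WT these closest relatives were therefore under peaks at the centromere and not at the chromosome ends.

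The single WT peak of the end zones overlapped the start of *ftm5*, a member of a family of genes for proteins with transmembrane helices. It was 387 bp long (chrII:7824-8210) with a height of 3.5, and 14 of the 59 WT peaks were lower. Its summit at position 8004 fell in the coding exon of the gene, whose annotated range begins at 7980. It covered 15.6% of *ftm5*. None of its 150-base sequences was unique. All 387 bases recur at SPBPB2B2.19C at II right and 386 of 387 across the start of *ftm4* at I right. A further copy of 149 bases lies at the start of *ftm1* at I left, where the reference has a gap of unknown bases. WT had no peak at any of these copies. The untagged and *SUMO-KallR* lists had summits nearby, at 7965 (height 30.5) and 7967 (height 36.5), the latter the highest *SUMO-KallR* summit of II left. Both lay between genes, 15 and 13 bp before *ftm5*. Those lists also covered the copy at SPBPB2B2.19C (heights 30.1 and 21.5) and that at *ftm4* (52.7 and 23.2), and had no peak over the copy in *ftm1*. The bases of the WT peak were thus entirely under peaks of the untagged control as well.

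All 7 *ftm* genes lay under untagged and *SUMO-KallR* peaks, as did 99.6% of all protein-coding genes in either list. Their heights ran from 15.9 (*ftm1*) to 52.7 (*ftm4*) in the untagged list, with a median of 30.1, and from 9.5 (*ftm2*) to 36.8 (*ftm3*) in *SUMO-KallR*, with a median of 21.5. *ftm1*, beside the gap in the reference, was the least covered, at 71.7% and 57.9%. Between 0.0% (*ftm3* and *ftm5*) and 54.2% (*ftm2*) of a gene was unique, and the order of the members is given as a description.

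An identical pair of sequences allowed a check of how far a list treats the same bases alike. The first 10149 bp of chromosome II recur without a difference, in reverse, at chrII:4502775-4512923, so reads from within them cannot be assigned to either copy by sequence. How the authors placed such reads, and whether the copies are the same in their build, ASM294v2, was not tested. In the untagged list the left copy was 98.1% and the right copy 97.3% covered, and 95.4% of the bases had the same state, covered or not, in both. *SUMO-KallR* peaks covered 87.7% and 87.8%, with the same state at 85.8% of bases, 710 bp being covered in the left copy alone and 727 bp in the right copy alone. The highest summit inside the left and right copy had a height of 30.5 and 30.1 in the untagged list and of 36.5 and 21.5 in *SUMO-KallR*, at different places in the copies. Sequence that is the same thus had nearly equal highest summits in the untagged list and summits 15.0 units apart in *SUMO-KallR*.

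The longest stretch of the genome under neither an untagged nor a *SUMO-KallR* peak lay at II left. It ran for 10757 bp (chrII:31283-42039) and was the longest of 788 such stretches, the next measuring 5604 bp. It was 100.0% unique, with a GC content of 32.4%, and lay inward of the repeated sequence of that end. The stretch held *ght7*, which encodes a hexose transporter, SPBC1348.12, which encodes a DNA-binding transcription factor, the pseudogene SPBC1348.11 and 5 of the 10 long non-coding RNA genes of the zones that no untagged peak touched. It left only 12.8% of the step from 30 to 40 kb of II left under untagged peaks and 9.07% under *SUMO-KallR* peaks, where the other 3 ends had 92.6% to 98.3% and 89.6% to 94.9%. *ght7* and SPBC1348.12 were the only protein-coding genes of the zones under no peak of either list. Reads of the inputs over this stretch were not analysed here.

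The other 4 bare stretches over 1000 bp lay at II right. Those of 2206 bp and 2129 bp lie on either side of *pho84*, the gene of a phosphate transporter, and the latter reaches into *pho1*, the gene of the extracellular acid phosphatase. Both genes are known to be repressed by long non-coding RNAs made upstream of them. The RNA gene upstream of *pho84*, *prt2*, was 52.1% under untagged and 54.5% under *SUMO-KallR* peaks, and that upstream of *pho1*, nc-*pho1*, 15.3% and 28.6%. *pho1* itself was 25.3% covered with a height of 3.1 in the untagged list and 51.8% with a height of 4.0 in *SUMO-KallR*, the lowest heights of any covered protein-coding gene of the zones in either list. *pho84* had 7.4 and 9.1. The remaining ones were 1269 bp at the inner edge of *tlh2*, with the pseudogene SPBCPT2R1.10 under no peak, and 1181 bp that ended 924 bp from the right end of chromosome II.

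Taken base by base, the untagged and *SUMO-KallR* lists covered largely the same sequence. Both covered 81.0% of the end zones, untagged peaks alone 8.4%, *SUMO-KallR* peaks alone 1.87% and neither 8.7%, compared with 92.3%, 3.66%, 0.855% and 3.16% in the rest of chromosomes I and II. The shared bases were 90.6% of those under untagged and 97.7% of those under *SUMO-KallR* peaks, beside 96.2% and 99.1% in the rest of both chromosomes. Untagged peaks covered 89.4% and *SUMO-KallR* peaks 82.9% of the zones, so a large shared part follows from their extent. The 131 stretches under untagged peaks alone were short, with a median of 205 bp and a longest of 930 bp between *tlh2* and the right end. They had a GC content of 29.2% and 6.15% coding sequence, against 33.9% and 40.8% in sequence under both, so they were mostly AT-rich and non-coding. The 50 stretches under *SUMO-KallR* alone had a median of 85 bp. The longest, of 1004 bp (chrII:90644-91647), reached into the transporter gene SPBPB10D8.04C, and the next, of 490 bp, lay in *gal7*, whose product acts in galactose use.

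**Figure D3:**
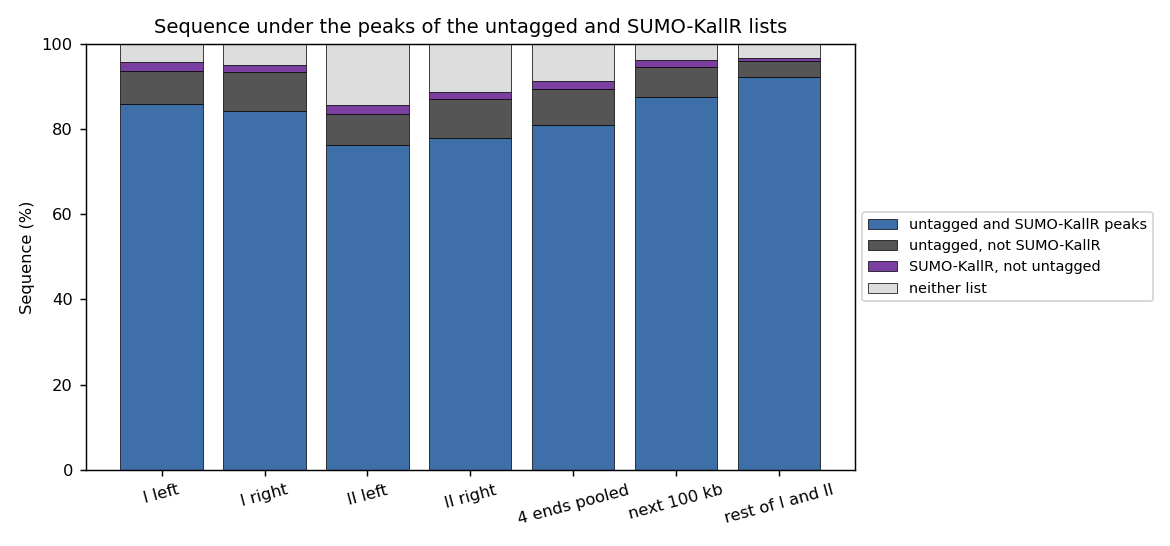
Share of sequence (%) under peaks of both the untagged and *SUMO-KallR* lists, of either alone, and of neither, as stacked bars for each end zone, the 4 zones pooled, the next 100 kb of each end and the rest of chromosomes I and II outside the centromere windows. Neither list covered 14.3% of II left and 11.3% of II right, against 4.31% of I left and 4.93% of I right.

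The annotation placed 373 genes in the end zones: 124 protein-coding genes, 235 long non-coding RNA genes, 13 pseudogenes and 1 other RNA gene, with no tRNA gene. A peak touched 122 of the 124 protein-coding genes in the untagged list and 122 in *SUMO-KallR* (98.4% each), close to the 99.6% of all protein-coding genes in either list, and 1 in WT (0.806%), beside 0.313%. At least 50% of the gene body was covered in 120 and 119 of them. Long non-coding RNA genes were touched in 225 and 222 of 235 cases, beside 97.7% and 96.7% genome-wide, and in 0 cases in WT, beside 1.7%. Of the 33 long terminal repeats, remnants of Tf retrotransposons, 29 (87.9%) lay under untagged peaks, beside 82.8% of all such repeats, and 27 (81.8%) under *SUMO-KallR* peaks, beside 60.5%. WT peaks touched 0 of 33, beside 0.0%. Median height over the 16 repeats of the outer 50 kb was 30.1 in the untagged list and 29.6 in *SUMO-KallR*, and over the 17 of the inner 50 kb 12.2 and 11.3.

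Over protein-coding genes, height followed position in the same way as over bins. The 62 genes of the outer 50 kb had a median height of 26.0 in the untagged list and 17.2 in *SUMO-KallR*, and the 62 genes of the inner 50 kb 12.7 and 12.3. Median unique sequence was 21.8% for the outer and 100.0% for the inner genes. The outermost genes were *tlh1* at I left, SPAC750.08C (an NAD-dependent malic enzyme, heights 53.8 and 44.8 in the untagged and *SUMO-KallR* lists) at I right, SPBC1348.15 (30.5 and 6.8) at II left and *tlh2* at II right. At the inner edge of the zones were *pfl8* (a glycoprotein, 10.6 and 10.8), SPAC922.04 (30.2 and 13.8), the transporter gene SPBPB10D8.07C (37.2 and 29.0) and *ecl3* (8.4 and 11.3). Both summits in SPAC750.08C lay 5 bp apart, at positions 5578802 and 5578797 of chromosome I, in a coding sequence with no unique 150-base sequence.

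**Figure D4:**
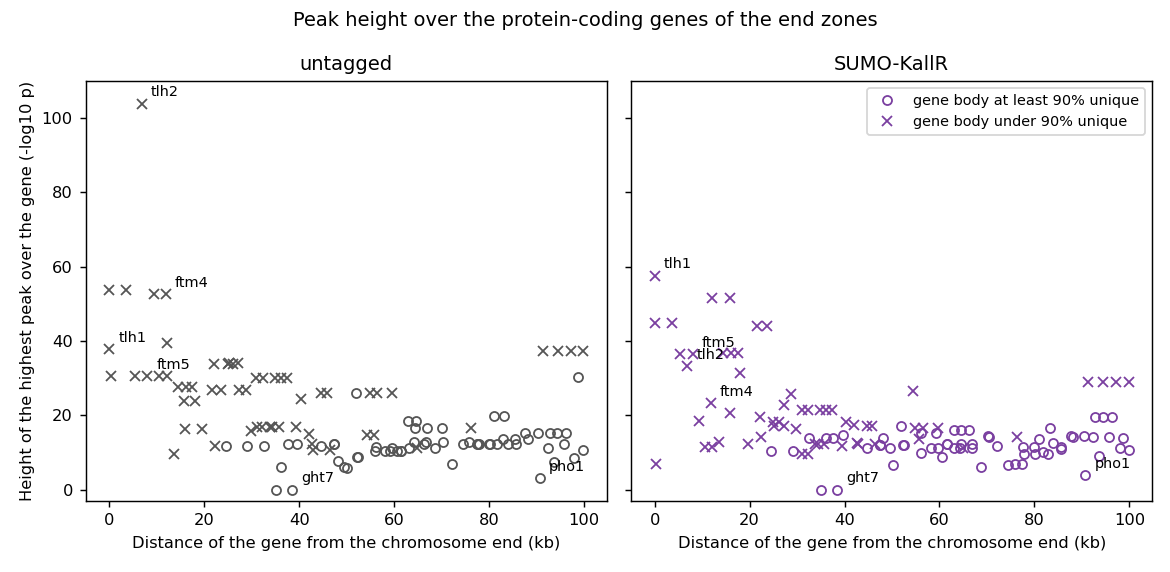
Height of the highest peak over each of the 124 protein-coding genes of the end zones (−log10 *p*) against the gene's distance from the chromosome end in kb, for the untagged (left) and *SUMO-KallR* (right) lists, with circles for gene bodies at least 90% unique and crosses for the others. Median height was 26.0 and 17.2 within 50 kb of the end and 12.7 and 12.3 beyond it, and *ght7* and SPBC1348.12 lie at 0.

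Gene classes ranged over different heights, and their members lie at different distances from the end. A peak touched 99.6% of all protein-coding genes in either list, so the counts under peaks do not set a class apart. Of 23 membrane transporter genes, 22 lay under untagged and 22 under *SUMO-KallR* peaks, *ght7* being the exception. Median heights were 14.9 and 14.2. The highest untagged values were those of SPBPB10D8.04C to SPBPB10D8.07C, 37.2 each, in a tandem array of 4 units of 2759 bp (chrII:91637-102672) whose inner edge lies beyond the zone. In *SUMO-KallR* the array had 29.0, and the highest transporter was SPAC750.02C at I right with 36.8. Among the others, the sodium/proton antiporter gene *nhe1* had 26.0 and 17.2, and the amino acid transporter genes *cat1* and *put4* had 15.3 and 12.2 in the untagged list and 14.4 and 12.5 in *SUMO-KallR*.

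Cell-surface glycoprotein genes spanned a wide range. All 6 lay under peaks of both lists, beside 99.6% of all protein-coding genes. Heights ran from 5.9 (*pfl9*) to 39.4 (SPAC212.08C) in the untagged list and from 6.6 (*pfl9*) to 51.7 (SPAC212.08C and SPAC212.12) in *SUMO-KallR*. The high members lie 12157 and 15854 bp from the left end of chromosome I and *pfl9* lies 50174 bp from the right end.

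Genes of sugar metabolism, which lie mostly in unique sequence, had low peaks. Their median height was 10.3 in each list, near the 12.2 (untagged) and 12.1 (*SUMO-KallR*) of bins at least 90% unique. Of 10 genes, 9 lay under peaks of each list, beside 99.6% of all protein-coding genes. Their heights were 6.2 to 13.5 in the untagged list and 8.7 to 12.1 in *SUMO-KallR*. They include *gal1* (galactokinase, 6.2 and 11.1), *gal10* (epimerase, 8.8 and 12.1), *gal7* (11.6 and 9.9), *mel1* (melibiase, 12.2 and 9.7), *eno102* (enolase, 10.3 and 11.1) and *ght3* (a gluconate symporter, 13.5 and 9.5), with the untagged value first. All 11 genes of redox enzymes lay under peaks of both lists, beside the same 99.6%. Their heights ran from 7.7 (SPAC186.02C) to 33.8 (SPBC1348.09) in the untagged list and from 10.3 to 19.6 in *SUMO-KallR*.

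The 4 genes of iron and fluoride transport all lay under peaks of both lists, beside 99.6% of all protein-coding genes. The fluoride exporters *fex1* at I left and *fex2* at II left had 26.0 and 14.6 in the untagged list and 16.5 and 13.6 in *SUMO-KallR*. The siderophore transporter *str3* had 13.5 and 14.1 and *shu1*, which acts in haem uptake, 13.5 and 11.5, in the order untagged and *SUMO-KallR*. Of the transcription factor genes, *grt1* had 12.4 and 11.9 and SPBC1348.12 lay under no peak, and *isp3*, known from sexual differentiation, had 12.4 and 14.1. No gene carried a meiotic *mug* name in this annotation. Of the 13 pseudogenes, 11 (84.6%) lay under peaks of both lists, beside 90.6% of all pseudogenes in the untagged list and 93.8% in *SUMO-KallR*, with median heights of 33.4 and 27.2. None lay under a WT peak, beside 0.0%.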

How the data were processed

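Processed peak lists of 3 ChIP libraries (untagged, WT and *SUMO-KallR*) were analysed. After trimming (Cutadapt), the authors aligned reads to ASM294v2 and budding yeast SacCer3 with Bowtie2, filtered them with SAMtools (unmapped reads, rDNA, mitochondrial DNA and duplicates), and called peaks in each library with MACS3 against its input after scaling and spike-in calibration, and the labels mention a later stricter removal of background. Neither versions nor the cutoff could be stated, as not given in the sources. The deposited score of each peak was divided by 10 to give the height. No header states its meaning, and library depth is not in the lists, so heights were compared within a list. The authors counted uniquely mapped reads for each genome, and whether this means a single place in the genome is not stated.

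Coverage was computed by base, in bins of 500 bp and steps of 10 kb, with Python 3.11.15, NumPy 2.4.6, pandas 2.3.3 and SciPy 1.17.1, and copies were found with BLAST+ 2.17.0. All peaks ended within the chromosomes of ASM294v3, which supplied sequence and annotation. An overlap of 1 bp counted for genes. Uniqueness was counted over 150-base sequences. The scripts recovered the known answer in 50 of 50 simulated lists. Genes were named if they were *tlh* or *ftm* genes, lay at or nearest the summits of the 5 highest peaks of a list, were the outermost or innermost coding genes, lay in the 5 longest stretches of a state, or had the highest or lowest peak of their class, and further genes were named after their values were seen. Members and lists were chosen with earlier results of these data known. Alternatives were height floors, peak widths, merging, bin and zone sizes, and unique sequence alone.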

Additional observations from a re-analysis of the deposited data

How the results depend on the processing

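All values describe single libraries with no test, and an alternative was counted as moved when it left a 95% interval of the value over bins or genes. That interval was exact binomial for shares, a normal approximation for outer minus inner differences, and taken from ranked bins for median heights. Of 72 alternatives for 17 results, 39 stayed within the interval, 27 moved and 6 changed sign. No paired analysis was possible because each strain had 1 ChIP library. In the order untagged and *SUMO-KallR*, a height floor of 10 lowered the covered share from 89.4% and 82.9% to 82.1% and 68.8%, the bins at least 50% covered to 83.1% and 69.5%, and the covered protein-coding genes to 89.5% and 86.3%. It raised sequence under untagged peaks alone from 8.4% to 18.1% and under *SUMO-KallR* alone from 1.87% to 4.86%. Merging peaks closer than 500 bp gave covered shares of 93.0% and 87.5%, and 6.03% and 0.569% for sequence under untagged or *SUMO-KallR* peaks alone. Any overlap gave 95.0% and 92.8% of bins, and whole bins 80.4% and 67.9%. Unique bins gave a covered share of 79.9% for *SUMO-KallR* and median heights of 12.2 and 12.1 in place of 15.3 and 14.1. Zones of 20 kb gave 92.4% for the untagged list. The alternative without the longest bare stretch of II left, chosen after seeing the data, gave 91.9%.

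The difference between the outer and inner 50 kb, -2.55 and -3.82 points, was the least stable value. It became 2.52 and 11.6 with a height floor of 10, 3.65 and 1.45 with the border at 20 kb, and 2.46 and 0.787 without the bare stretch of II left. Unique bins, which include that stretch, gave -13.9 and -17.1. For WT, whose single peak has a height of 3.5 and no unique sequence, a floor of 10 or unique bins gave a covered share of 0.0, and a floor of 10 or a minimum of 50% of the gene body gave 0.0% of genes. No median height of WT could be given in unique bins.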

Other observations

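Copies shared between ends were covered alike in many cases and not in others. Over 26 pairs of at least 1169 aligned bases, some of which overlap, the median difference in coverage between the copies was 3.35 percentage points in the untagged list and 4.2 in *SUMO-KallR*, and the largest were 18.2 and 40.1. The largest in *SUMO-KallR* was between chrI:8588-12695 (56.5%) and chrI:5575037-5579133 (96.6%), which are 99.64% identical. The longest pair, 14983 aligned bases with 99.59% identity, joins chrI:34314-49280 and chrII:14527-29492, with untagged coverage of 95.3% and 95.8% and *SUMO-KallR* coverage of 91.2% and 89.2%. The block that holds *tlh1* (chrI:1-12695) and most of its match with *tlh2* (chrII:4519864-4532546), 99.82% identical, had 95.0% and 87.6% in the untagged list and 84.0% and 83.8% in *SUMO-KallR*.

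Summits of the untagged and *SUMO-KallR* lists coincided more often in number in the end zones than elsewhere. Of 115 *SUMO-KallR* summits there, 15 lay within 100 bp of an untagged summit (13.0%), and of 1194 in the rest of chromosomes I and II 81 did (6.78%). The end zones also have more summits per length in both lists, and no test was made.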
